A study of Homo sapiens with 6 samples.

Results

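The genes described here encode the retinoblastoma family of pocket proteins and the DREAM/MuvB complex, with the transcription factors that join them: RB1, RBL1, RBL2, E2F4, E2F6, LIN9, LIN52, LIN54, MYBL2 and FOXM1. They were taken from the deposited tables by symbol, and 9 of these 10 genes were listed at all 3 times, among 11886 genes listed at all times and 13161 listed at any time. FOXM1 was listed at 3 and 12 h but not at 0 h in the tables used here, so it is described apart from the other 9.

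RNA came from U2OS, an established human osteosarcoma line, carrying siRNA against E2F7 (siE2F7) or a non-target control siRNA (siNT). All cells had been held for 24 h in 4 mM hydroxyurea, which stalls DNA replication, and were taken at 0 h (G1/S transition), 3 h (S phase) or 12 h (G2/M boundary) after its removal. Each arm had 1 library at each time, 6 in all, so a single time sets 1 library against 1. The control cells had therefore passed through the same block as the knocked-down cells, and no unblocked or untransfected cells are compared here. Values are FPKM, that is fragments scaled to transcript length and to the mapped fragments of the library, so levels of different genes can be set side by side, but the tables give no counts and the depth of the libraries is unknown. FPKM summed to between 351305 and 375954 per library. Of 6 bone lineage genes looked up, 4 were listed in all 6 libraries, with SPARC, a bone matrix protein, at 401 to 528 FPKM and the osteoblast factor RUNX2 at 2.83 to 4.60 FPKM, and COL1A2 and BGLAP were listed in none. The blood cell genes PTPRC and CD3E were listed in none, while the epithelial gene EPCAM was listed in all 6 at 2.33 to 3.27 FPKM and CDH1 in 4 at 1.29 to 1.69 FPKM. E2F7 stood at 9.48, 10.6 and 5.52 FPKM in the siE2F7 libraries of 0, 3 and 12 h, against 20.3, 29.4 and 16.6 FPKM in the siNT libraries. It was lower in the siE2F7 library at each time, though transcript was left in all 3.

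Pocket proteins hold E2F transcription factors in check: RB binds mainly the activating E2Fs, while p107 (RBL1) and p130 (RBL2) bind E2F4 and its close relative E2F5. In resting cells p130 or p107, an E2F with its DP partner, and the MuvB core (LIN9, LIN37, LIN52, LIN54 and RBBP4) form the DREAM complex, which represses genes of DNA replication and mitosis. When cells enter the cycle the pocket protein leaves, and MuvB joins B-Myb (MYBL2) and later FOXM1 to switch on genes of G2 and mitosis. E2F6 represses without a pocket protein and works with Polycomb proteins. E2F7, the siRNA target, is an atypical E2F that represses E2F target genes without a pocket protein.

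The promoters of 3 members are shown because MYBL2 and LIN52 were the members that rose with siE2F7 and RBL1 had the highest ratio of the pocket proteins. That of RBL2 is shown beside them because it is the closest relative of RBL1 and its values lay lower with siE2F7. Sequences are the 250 bases before the transcript start, 5′ to 3′ on the strand of the gene, from RefSeq (GRCh38.p14). Capitals mark matches, on either strand, to 3 forms of the E2F motif, which are GCGGGAA, a variant and a shorter core, the other two of them spelled out after the sequences. The positions are chr20:43666864-43667113 (+) for MYBL2, chr14:74084706-74084955 (+) for LIN52, chr20:37095998-37096247 (-) for RBL1 and chr16:53434221-53434470 (+) for the upstream of 2 RBL2 entries.
MYBL2: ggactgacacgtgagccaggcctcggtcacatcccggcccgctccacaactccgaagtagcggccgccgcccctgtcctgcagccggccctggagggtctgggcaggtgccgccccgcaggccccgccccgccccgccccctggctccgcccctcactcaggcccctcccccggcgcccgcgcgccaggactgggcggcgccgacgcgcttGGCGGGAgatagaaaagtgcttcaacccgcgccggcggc
LIN52: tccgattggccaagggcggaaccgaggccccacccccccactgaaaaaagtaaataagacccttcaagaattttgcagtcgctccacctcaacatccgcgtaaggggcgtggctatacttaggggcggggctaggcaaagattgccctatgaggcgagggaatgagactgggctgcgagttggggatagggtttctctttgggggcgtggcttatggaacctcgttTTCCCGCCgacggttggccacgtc
RBL1: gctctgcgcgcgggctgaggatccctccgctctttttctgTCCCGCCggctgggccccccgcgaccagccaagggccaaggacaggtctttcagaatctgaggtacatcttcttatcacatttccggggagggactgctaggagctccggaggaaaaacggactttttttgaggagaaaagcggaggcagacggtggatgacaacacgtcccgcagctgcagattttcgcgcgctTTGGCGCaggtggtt
RBL2: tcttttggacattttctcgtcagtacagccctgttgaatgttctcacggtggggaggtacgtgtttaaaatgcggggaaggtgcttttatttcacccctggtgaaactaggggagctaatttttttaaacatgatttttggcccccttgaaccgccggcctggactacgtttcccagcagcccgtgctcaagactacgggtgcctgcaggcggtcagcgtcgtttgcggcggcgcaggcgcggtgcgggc

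Of the 10 genes, 9 had promoter entries in the RefSeq table, and 5 of these 9 held an E2F motif match in the 250 bases of at least 1 entry: RBL1, LIN9, LIN52, LIN54 and MYBL2. A gene without a match had none in its entries, which may not hold its main start. RB1 had 1 entry (GRCh38.p14, chromosome 13, 48476200 to 48476449), whose place within the RB1 locus was not checked. The lack of a match in RB1 may therefore not describe its main promoter. Any of the 3 E2F motifs was found in 17.7% of all 35116 promoters of the table. That share is per entry, whereas the members are counted per gene, and a gene with several entries has more chances to match. GCGGGAA alone was found in 5.52%, the variant TTGGCGC in 2.56% and the shorter core GGCGGGA in 13.5%. The shorter core, which can overlap the first form, was added to the search after the sequences and the expression values had been seen, and MYBL2 and LIN54 matched through it alone. In MYBL2 the match began 39 bases before the start. In LIN52 an overlapping pair of matches began 24 and 23 bases before it. In RBL1 TTGGCGC began 15 bases before it, and a second match lay 210 bases before it. The window matters, since E2F6 held GCGGGAA 15 bases after its start, outside the bases searched. The CHR motif TTTGAA, to which LIN54 binds, was matched in full within the 250 bases in LIN54 alone among the members, and in 13.3% of all promoters. TTCGAA, a variant of it, was found in 1 LIN9 entry and in 1.19% of promoters. CCAAT, on either strand, was found in LIN52 and in the other RBL2 entry, and in 32.0% of promoters. A match shows the letters only, and nothing here tests whether a factor binds.

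**Figure D1:**
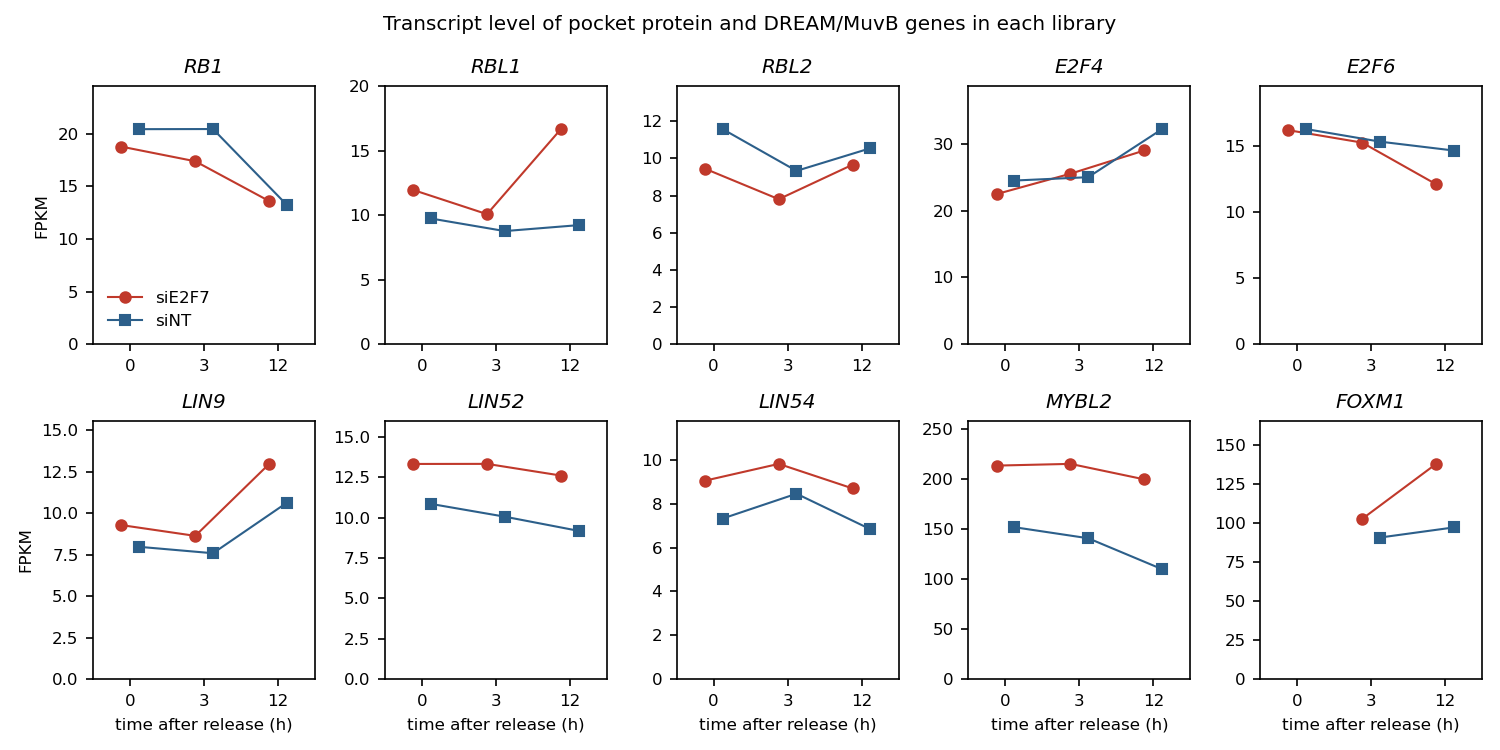
FPKM of each of the 10 genes (vertical axes, each from 0) in the siE2F7 (circles) and siNT (squares) libraries at 0, 3 and 12 h (horizontal axes, times evenly spaced), 1 library per point. MYBL2 and LIN52 lie higher in siE2F7 at each time, RBL2 lies lower, and RBL1 parts most at 12 h, at 16.7 FPKM in siE2F7 and 9.23 in siNT.

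In control cells the activating subunits were far more abundant as transcripts than the pocket proteins and the MuvB core. MYBL2 averaged 134 ± 21.7 FPKM (SD, n = 3 siNT libraries, 1 per time) and FOXM1 93.8 ± 4.58 FPKM (n = 2). E2F4 followed at 27.2 ± 4.31 FPKM, RB1 at 18.0 ± 4.17 FPKM and E2F6 at 15.4 ± 0.816 FPKM. RBL2, LIN52, RBL1, LIN9 and LIN54 averaged from 10.5 down to 7.54 FPKM. Over the siNT libraries each of these last 5 overlapped the next in order, as RB1 did with E2F6, while MYBL2, FOXM1, E2F4, and E2F6 each stood apart from the gene below. These SDs are over times, so they hold changes through the cycle as well as error.

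The arms were compared with limma over the 3 times, the 2 libraries of a time forming a block. The fit used log2(FPKM + 0.1), and p-values were adjusted by Benjamini-Hochberg over all 11886 genes, with a threshold of 0.05. Log2 changes below are siE2F7 over siNT on that scale, where the added 0.1 makes changes of weakly expressed genes look smaller. Of the 9 genes, 2 passed, MYBL2 and LIN52, where 13.9% of all genes tested passed. Both rose (2 of 9, against 6.76% of all genes), and 0 fell (7.13% of all genes). At an unadjusted p under 0.05, 5 of the 9 were higher (13.5% of all genes) and 1, RBL2, was lower (16.7%). The median log2 change of the 9 was 0.23, and that of all genes tested was -0.03. RBL1, LIN9, LIN52, LIN54 and MYBL2, 5 of the 9, lay above siNT at all 3 times, as 22.8% of all genes did. RBL2 and E2F6 lay below siNT at all 3 times, as 28.6% of all genes did. For E2F6 this turned with the scaling, its log2 ratio at 0 h being 0.02 after quantile normalization and 0.03 after median ratio scaling, and that at 3 h 0.0016 after quantile normalization. For RBL1, LIN52, LIN54 and MYBL2 every siE2F7 library stood above every siNT library, which held for 6.88% of all genes, and for 0 of the 9 did every siE2F7 library stand below (8.76%). With 9 genes these counts are descriptions. Nothing in the labels tells whether each time had its own culture, so the p-values reflect spread among these 6 libraries, which may be technical. With time as a block, that spread is how far the ratio between arms differs from time to time. It therefore holds any change of the ratio through the cycle as well as error. In bulk RNA, a different share of cells at a cycle stage and a different transcript level per cell cannot be told apart.

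**Figure D2:**
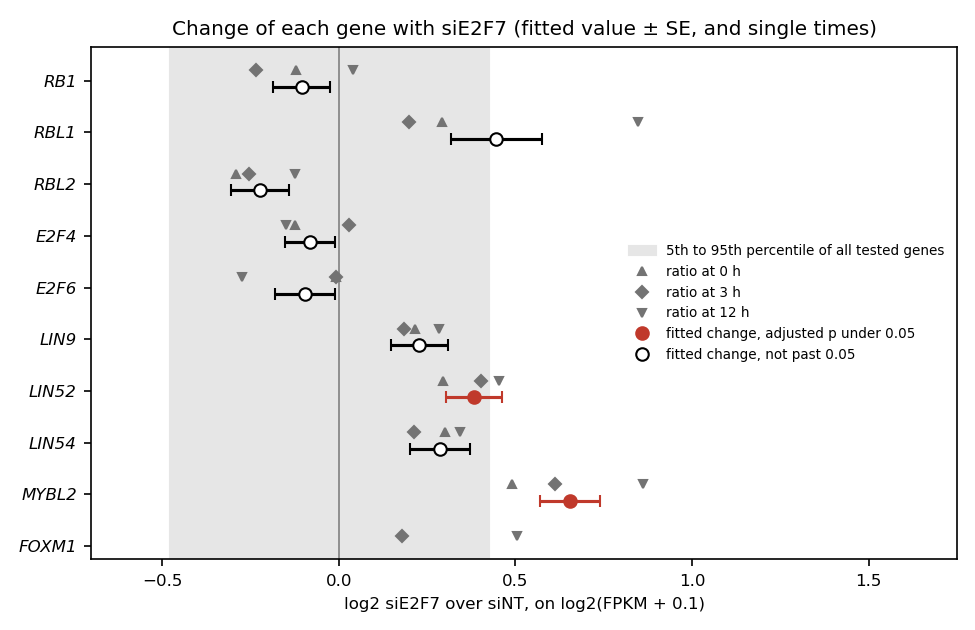
Log2 change, siE2F7 over siNT (horizontal axis), of the 10 genes (vertical axis). Large circles with bars are the fitted change ± SE, filled red where the adjusted p was under 0.05, small grey marks are the ratios of single times, and the grey band spans the 5th to 95th percentile of fitted changes of all tested genes. MYBL2 (0.65) and LIN52 (0.38) are filled, RBL1 spreads widest over the times, and FOXM1 has ratios of 2 times only.

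MYBL2, the B-Myb factor that MuvB recruits as cells pass into S phase, had the largest fitted change of the 9. The gene (hg19, chromosome 20, 42295709 to 42345122) stood at 213, 215 and 199 FPKM in the siE2F7 libraries of 0, 3 and 12 h, against 152, 141 and 110 FPKM in the siNT libraries. All 3 siE2F7 libraries were above all 3 siNT libraries. Its log2 change was 0.65 ± 0.08 (SE), 1.57-fold, with a limma adjusted p of 0.0042, and the change stood at percentile 98.0 of all genes tested. The call held without the libraries of any 1 time (adjusted p from 0.0089 to 0.018). It ended without the time block (0.095) and with the residual variance of the gene alone (0.24). The difference of 12 h minus 0 h was -0.10 on the log2 scale in siE2F7 cells and -0.47 in siNT cells, values with no test. The ratio between arms stood at 1.41-fold at 0 h, 1.53-fold at 3 h and 1.82-fold at 12 h.

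FOXM1, the forkhead factor that joins MuvB after B-Myb, was also higher in siE2F7 at both times at which it was listed. The gene (hg19, chromosome 12, 2945982 to 2986321) stood at 102 and 138 FPKM in the siE2F7 libraries of 3 and 12 h, against 90.5 and 97.0 FPKM in the siNT libraries. The 2 siE2F7 libraries were above both siNT libraries. In a fit that let in genes listed at only some times, with 1 residual degree of freedom for this gene, its log2 change was 0.34 ± 0.10 (SE; limma adjusted p = 0.093), which did not pass. Its entry overlaps LOC100507424, so reads may have been divided between them.

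LIN52, the small MuvB subunit through which the core is attached to p107 or p130, rose. The gene (hg19, chromosome 14, 74551656 to 74667117) was at 13.3, 13.3 and 12.6 FPKM in the siE2F7 libraries of 0, 3 and 12 h and at 10.8, 10.1 and 9.18 FPKM in the siNT libraries. The arms did not overlap, and within siE2F7 the values differed by less than 1 FPKM. Its log2 change was 0.38 ± 0.08 (SE), 1.30-fold, with a limma adjusted p of 0.021. The call ended without the libraries of 3 h (adjusted p = 0.096) or 12 h (0.058) and without the variance trend (0.053). It also ended without the time block (0.33) and with the residual variance of the gene alone (0.22).

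LIN54, the DNA-binding subunit that reads CHR elements, had higher values in siE2F7 without passing. The gene (hg19, chromosome 4, 83845756 to 83934040) stood at 9.05, 9.81 and 8.69 FPKM in siE2F7 and at 7.32, 8.45 and 6.83 FPKM in siNT at 0, 3 and 12 h. The lowest siE2F7 library was above the highest siNT library. The log2 change was 0.29 ± 0.08 (SE; limma adjusted p = 0.064). Of 13 alternative settings of the fit the gene passed in 1, quantile normalization (0.046), and without the time block the adjusted p was 0.58.

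LIN9, the subunit that helps hold the MuvB core together, gave the smallest of the upward MuvB values. The gene (hg19, chromosome 1, 226418861 to 226497198) stood at 9.29, 8.64 and 13.0 FPKM in siE2F7 and at 7.98, 7.59 and 10.6 FPKM in siNT at 0, 3 and 12 h. The arms overlapped across times, and siE2F7 was higher at each. The log2 change was 0.23 ± 0.08 (SE; limma adjusted p = 0.10). Both arms were highest at 12 h, where the level was 1.40-fold that of 0 h in siE2F7 and 1.33-fold in siNT, values with no test.

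RBL1 (p107) and RBL2 (p130) had values on opposite sides of siNT, and neither passed. RBL1 (hg19, chromosome 20, 35626178 to 35724410) stood at 12.0, 10.1 and 16.7 FPKM in the siE2F7 libraries of 0, 3 and 12 h, against 9.75, 8.77 and 9.23 FPKM in the siNT libraries. All siE2F7 values were above all siNT values, most of all at 12 h. Its log2 change was 0.45 ± 0.13 (SE), and the limma adjusted p of 0.062 missed the threshold. The ratio was 1.23-fold at 0 h, 1.15-fold at 3 h and 1.81-fold at 12 h, and without the libraries of 12 h the log2 change was 0.25 (adjusted p = 0.19). Of 13 alternative settings RBL1 passed in 2, after median ratio scaling (0.042) and when genes that share a locus were left out of the table (0.037).

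RBL2 (hg19, chromosome 16, 53468351 to 53537170) stood at 9.45, 7.80 and 9.66 FPKM in siE2F7 and at 11.6, 9.33 and 10.5 FPKM in siNT. It was lower in siE2F7 at each time, and the arms overlapped across times. Its log2 change was -0.22 ± 0.08 (SE; limma adjusted p = 0.12). Its entry overlaps AKTIP, and whether strand was used in counting is not given in the sources used here.

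Set against each other within a library, RBL1 had a higher FPKM than RBL2 in each siE2F7 library and a lower one in each siNT library. The overlap of the RBL2 entry with AKTIP may affect its level, and so which gene ranked higher. RBL1 FPKM over RBL2 FPKM was 1.27, 1.29 and 1.73 in the siE2F7 libraries of 0, 3 and 12 h, against 0.842, 0.941 and 0.876 in the siNT libraries. The means were 1.43 ± 0.259 in siE2F7 and 0.886 ± 0.0501 in siNT (SD, n = 3 each), and the arms did not overlap. The ratio was chosen after the values were seen. A two-sided exact permutation test of its log2 over the 3 pairs gave p = 0.25, the smallest that 3 pairs allow. As all 3 pairs had been seen to differ in the same direction, the test could give no other value.

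RB1, E2F4 and E2F6 had fitted changes close to 0. RB1 (hg19, chromosome 13, 48877883 to 49056026), the founding pocket protein, stood at 18.8, 17.4 and 13.6 FPKM in siE2F7 and at 20.4, 20.4 and 13.2 FPKM in siNT. The sign of its ratio differed between times, and the log2 change was -0.10 ± 0.08 (SE; limma adjusted p = 0.43). Both arms were lowest at 12 h, at 0.724-fold the 0 h level in siE2F7 and 0.647-fold in siNT.

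E2F4 (hg19, chromosome 16, 67226068 to 67232821), an E2F that p107 and p130 bind, stood at 22.5, 25.5 and 29.0 FPKM in siE2F7 and at 24.5, 25.0 and 32.2 FPKM in siNT. Its log2 change was -0.08 ± 0.07 (SE; limma adjusted p = 0.49). Both arms were highest at 12 h, 1.29-fold the 0 h level in siE2F7 and 1.31-fold in siNT. E2F6 (hg19, chromosome 2, 11584501 to 11606297) stood at 16.2, 15.2 and 12.1 FPKM in siE2F7 and at 16.2, 15.3 and 14.6 FPKM in siNT. Its arms nearly coincided at 0 and 3 h and parted at 12 h, and the log2 change was -0.10 ± 0.08 (SE; limma adjusted p = 0.49).

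Values across time carry no test, since each is 1 library against 1 and nothing shows that the tables of the 3 times were scaled together. Between 0 and 12 h the median gene shifted by -0.05 (log2) in siE2F7 and by -0.03 in siNT. Against that, RB1 shifted by -0.46 in siE2F7 and -0.62 in siNT, at percentiles 14.9 and 8.03 of all genes. E2F4 shifted by 0.37 in siE2F7 and 0.39 in siNT, and LIN9 by 0.48 and 0.41. For these 3 genes the shifts of both arms had the same sign. RBL1 shifted by 0.48 in siE2F7 and -0.08 in siNT, and MYBL2 by -0.10 and -0.47. LIN52 and LIN54 lay within 0.24 of their 0 h level in each arm.

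The profiles of the 6 libraries, each centred on its own mean, were compared by Euclidean distance on the log2 scale. Among genes averaging 1 FPKM or more, the nearest profile to MYBL2 was that of RBBP4, the histone-binding MuvB subunit, at 0.114, followed by POLE, the catalytic subunit of a replicative polymerase, at 0.171. The nearest to LIN52 were SAP30, of the SIN3 corepressor, at 0.0770, VAMP7 at 0.0872 and CTDSP1, a phosphatase, at 0.0931. RBL1 had its nearest neighbours farther off, TLR8-AS1 at 0.147, TMEM168 at 0.180 and DCAF16 at 0.209. Among the 9 genes the closest pair was LIN52 and LIN54, at 0.266. With 6 libraries and so many genes near profiles are common, so these distances describe likeness only.

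The remaining subunits of the complexes were not uniform. RBBP4 rose, at 29.4, 30.8 and 28.1 FPKM in siE2F7 and 19.9, 19.1 and 14.4 FPKM in siNT at 0, 3 and 12 h. Its log2 change was 0.74 ± 0.09 (SE; limma adjusted p = 0.0036), higher in 3 of 3 pairs, though its entry overlaps SYNC. TFDP1, the DP partner of E2F4, rose by 0.25 ± 0.06 (adjusted p = 0.036), and it no longer passed once the libraries of 0, 3 or 12 h were dropped (0.096 to 0.14). TFDP2 and LIN37 did not pass, with log2 changes of -0.01 and -0.15 (adjusted p = 0.96 and 0.46). E2F5, which can replace E2F4, was not listed at 3 h. It stood at 1.15 and 0.913 FPKM in the siE2F7 libraries of 0 and 12 h, against 2.14 and 3.26 FPKM in the siNT libraries, low levels with no test.

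Enzymes that act on pocket proteins were compared as a list of cyclins, kinases, inhibitors and phosphatases, chosen like all the lists here with earlier results of these data known. Of 18 measured, 8 rose (6.76% of all genes did) and 0 fell (7.13%), with a median log2 change of 0.18. At an unadjusted p under 0.05, 2 of them were lower, CCND1 and CDKN2B, as 16.7% of all genes were. Those that rose included activating cyclins and kinase inhibitors. CCNE2 and CCNE1, the E cyclins whose kinase phosphorylates pocket proteins, rose by 1.55 ± 0.14 and 1.05 ± 0.08 (SE; limma adjusted p = 0.0015 and 0.0010). CCNE2 was still at 14.7 FPKM in siE2F7 at 12 h, against 3.91 FPKM in siNT. Their partner CDK2 rose by 0.36 ± 0.08, CCNA2, an S phase and mitotic cyclin, by 0.48 ± 0.08, and the D-type cyclin CCND3 by 0.55 ± 0.06. The kinase inhibitors CDKN2C, CDKN2D and CDKN1A rose as well, by 1.30 ± 0.15, 0.64 ± 0.14 and 0.55 ± 0.08.

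CDK4 and CDK6 did not pass (-0.11 and 0.10, adjusted p = 0.35 and 0.54), nor did CCND1 (-0.24, 0.12). DYRK1A, the kinase that marks LIN52 for DREAM assembly, stood at 0.21 (log2, adjusted p = 0.19). The calls of CDK2 (without 3 or 12 h) and CDKN2D (without 3 h) ended when libraries of 1 time were left out. CCNE2 and CCNA2 overlap INTS8 and EXOSC9.

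**Figure D3:**
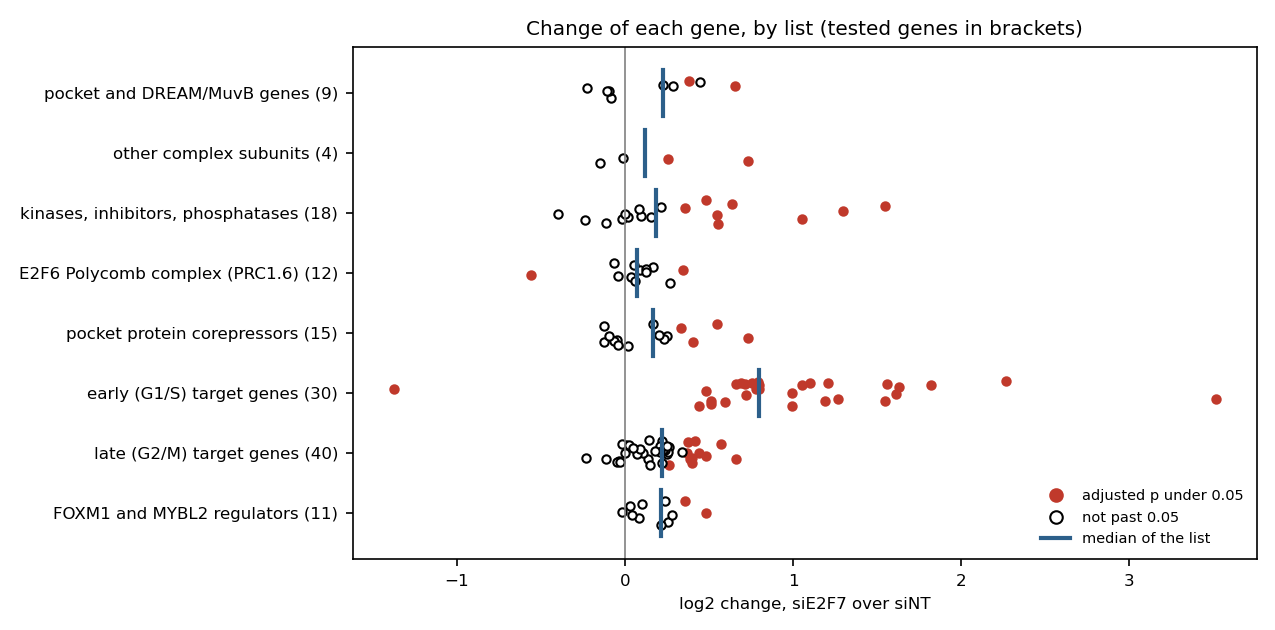
Log2 change, siE2F7 over siNT (horizontal axis), of each tested gene in 8 lists (vertical axis, number of tested genes in brackets, points spread vertically at random). Red points had an adjusted p under 0.05, open points did not, and blue bars are medians. The early targets lie to the right of the late targets (medians 0.80 and 0.22), and the point at -1.37 among the early targets is E2F7 itself.

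Partners of repression mostly did not pass. In the list of Polycomb proteins that work with E2F6, 1 of 12 rose and 1 fell, with a median of 0.07. Both counts are near the shares over all genes, 6.76% and 7.13%. PCGF6 rose by 0.35 ± 0.08 (SE; limma adjusted p = 0.026, not called without the libraries of 3 or 12 h). MAX, a DNA-binding partner in that complex, fell by 0.56 ± 0.07 (0.0035), and its entry overlaps CHURC1, FNTB, RAB15 and others. In the list of pocket protein corepressors 4 of 15 rose (6.76% of all genes) and 0 fell (7.13%), with a median of 0.17. At an unadjusted p under 0.05 the counts were 8 higher (13.5% of all genes) and 0 lower (16.7%). The 4 that rose at the adjusted threshold included RBBP4 and DNMT1, the maintenance DNA methyltransferase (0.55 ± 0.08, limma adjusted p = 0.0050). The others were SAP30 (0.40 ± 0.07, 0.014) and RBBP7, the close relative of RBBP4 (0.33 ± 0.08, 0.034). SAP30 was not called without the libraries of 3 h, nor RBBP7 without those of 3 or 12 h. Among regulators of FOXM1 and MYBL2, 2 of 11 rose, CDK2 and CCNA2, and 0 fell (6 and 0 at an unadjusted p under 0.05), beside the same shares over all genes.

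Genes that DREAM represses fall into an early set, expressed at G1/S, and a late set, expressed at G2/M through MYBL2 and FOXM1. Of 30 early genes, 29 rose and 1 fell (6.76% and 7.13% of all genes), the last being E2F7 itself, with a median log2 change of 0.80. E2F2, MCM6, MCM5 and E2F8 led them, with 3.51 ± 0.31, 2.27 ± 0.21, 1.82 ± 0.14 and 1.63 ± 0.15 (SE; limma adjusted p from 0.0010 to 0.0017). In siNT at 0, 3 and 12 h, E2F2 was at only 5.04, 1.89 and 1.30 FPKM and E2F8 at 4.84, 3.65 and 2.84 FPKM. The size of these 2 changes therefore depends on the amount added before taking logs. With 1 FPKM added in place of 0.1 they were 3.07 and 1.42. Of 40 late genes, 11 rose, 0 fell and 29 did not pass, with a median of 0.22, where 6.76% of all genes rose and 7.13% fell. At an unadjusted p under 0.05, 20 were higher (13.5% of all genes) and 1 was lower (16.7%), AURKA, named here for that count alone. NUSAP1, a spindle protein, rose by 0.66 ± 0.11, the proliferation marker MKI67 by 0.57 ± 0.08, CCNA2 by 0.48 ± 0.08 and PRC1, of the spindle midzone, by 0.44 ± 0.07 (adjusted p from 0.0047 to 0.0093). The late count was 5 without the libraries of 3 h and 5 without those of 12 h, and it was 13 after quantile normalization and 15 after median ratio scaling. The lists do not separate genes bound by E2F7 from genes bound by DREAM.

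The median ratio of the early genes was 0.64, 0.95 and 1.05 (log2) at 0, 3 and 12 h, and that of the late genes 0.03, 0.19 and 0.42. The 9 pocket and DREAM/MuvB genes had 0.22, 0.18 and 0.28, and all genes tested -0.04, 0.00 and -0.04. The late genes lay higher at 12 h than at 0 h in both arms, with a median difference of 1.23 (log2) in siE2F7 and 0.99 in siNT. Differences between times were not tested.

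**Figure D4:**
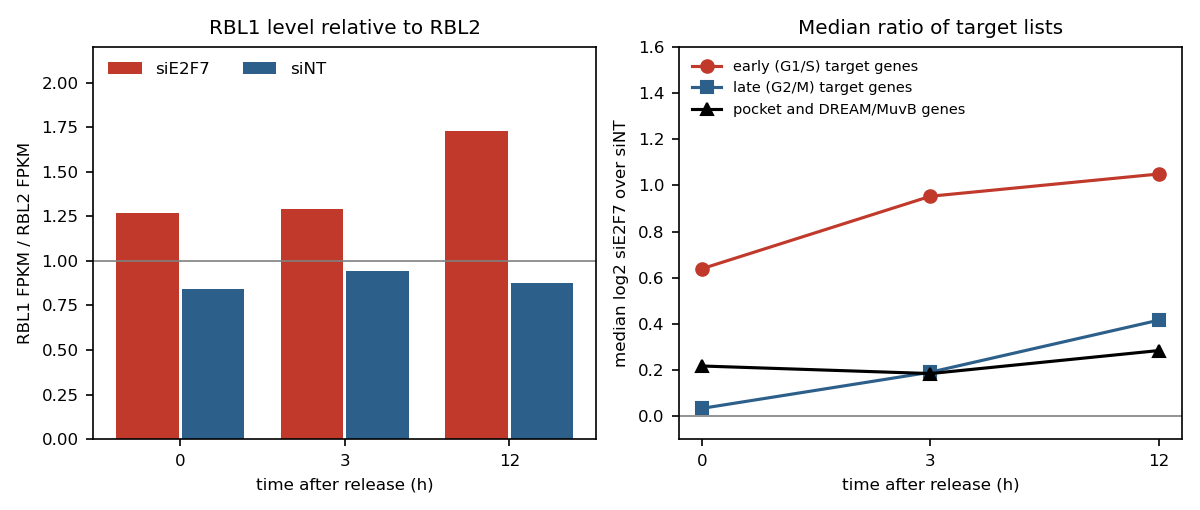
Left, RBL1 FPKM divided by RBL2 FPKM in each library at 0, 3 and 12 h, siE2F7 beside siNT, with a line at equal levels. Right, median log2 ratio, siE2F7 over siNT, of 30 early, 40 late and 9 pocket and DREAM/MuvB genes at each time (times evenly spaced on both axes). All siE2F7 bars are above the line and all siNT bars below it, and the late genes run from 0.03 at 0 h to 0.42 at 12 h.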

How the data were processed

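RNA of 6 U2OS libraries was measured, 1 per arm and time. Per the labels' protocols, TRIzol and an RNeasy kit gave the RNA, and TruSeq RNA reagents the libraries. The authors deposited FPKM per gene, in tables with Cuffdiff-style columns per the file headers. CASAVA 1.8 and the build hg19 (GRCh37) are named in the submitters' processing notes. For the aligner, annotation and filter the sources used here give nothing. No listed pair had both values under 1.26 FPKM, and some genes were listed at only some times. Why they were absent at the others was not tested. FOXM1, absent at 0 h, stood at 90.5 FPKM or more in each library of 3 and 12 h. FPKM hold no depth, so no counting error is given.

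Genes were joined by symbol. All 11886 genes listed at all times were fitted with limma 3.58.1 (R 4.3.3) on log2(FPKM + 0.1), with arm as the term, time as a block, a variance trend and Benjamini-Hochberg adjustment. The fit had 2 residual and 5.41 prior degrees of freedom. It was also run on simulated data, with independent noise drawn from its own variance trend and the same change at every time. That run cannot show how the fit behaves where the ratio between arms differs between times. An overlap means that 2 listed entries share bases in the deposited coordinates. Promoters are RefSeq entries on GRCh38.p14, read without converting coordinates. The members and lists were chosen with earlier results of these data known. Named were all members, their complex partners and enzymes, up to 4 highest and 4 lowest called genes of the other lists (CCNA2 and RBBP4 fall in several), and up to 3 nearest profiles of a member, of which 1 is not reported here. The bone, blood and epithelial genes were chosen after the values were seen. Alternatives were another pseudocount, scaling or filter, no trend, no block and leaving out each time.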

Additional observations from a re-analysis of the deposited data

Results flagged for a closer look

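FOXM1 lay outside the comparison of the 9 genes because it was not listed at 0 h, and its values in siE2F7 were above those in siNT at the other times. The log2 ratio, siE2F7 over siNT, was 0.18 at 3 h and 0.50 at 12 h, each from 1 library against 1. The cause of the missing entry at 0 h was not tested.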

How the results depend on the processing

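The direction of the fitted change held for each of the 9 members in all the alternatives run for it. It could not differ where the filter, variance trend, time block or variance sharing was changed, since each member's fitted change stays the same there. MYBL2 passed in 11 of 13 alternatives, with log2 changes from 0.55 to 0.74, and LIN52 in 8 of 13, from 0.35 to 0.43. RBL1 passed in 2 of 13 and LIN54 in 1 of 13, and RB1, RBL2, E2F4, E2F6 and LIN9 in none.

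Without the variance trend 852 genes were called (400 higher, 452 lower), 1 of the 9 members and 5 late targets. Without the time block 32 were called (15 higher, 17 lower), 0 members, 4 early and 0 late targets, the 4 being the only genes called over all the lists together, against 53 in the reported fit. With the residual variance of each gene alone, on 2 degrees of freedom, 4 genes were called (0 higher, 4 lower), with 0 members, 0 early, 0 late and 0 over all the lists together, so the calls rest on sharing variance between genes. This last alternative and that without genes sharing a locus were chosen after seeing the data. Leaving out the libraries of 1 time gave 763 to 1109 called genes, 332 to 557 higher and 431 to 560 lower, against 1650, 803 and 847. It gave 1 to 2 members, 5 to 9 late targets, 28 to 29 early targets and 40 to 50 genes over all the lists together, early and late included.

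Scaling moved the median change of all genes between -0.03 as deposited and -0.00 after median ratio scaling. The called genes were then mostly higher, 965 against 883 lower after quantile normalization and 1039 against 826 after median ratio scaling. Ratios at single times and differences between 0 and 12 h were also taken under another pseudocount, quantile normalization and median ratio scaling. Each moved by less than the gene's residual SD in the reported fit, where variance is shared between genes. That SD is not the spread of the gene alone, which was not used as the measure here. The small E2F6 ratios at 0 and 3 h turned sign. The labels give no replicate numbers, and the reported fit pairs the arms by time. Unknown depth limits what can be said of genes of few FPKM, such as E2F5, or E2F2 and E2F8 in siNT.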
